A study of Mus musculus with 9 samples.

Results

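Liver stores most of the vitamin A of the body as retinyl esters, mainly in hepatic stellate cells, and hepatocytes release it to the blood as retinol bound to a carrier protein. Retinol is oxidized to retinal and then to retinoic acid, which binds nuclear receptors and switches target genes on. Enzymes of the CYP26 family hydroxylate retinoic acid and so remove it, and their genes are themselves classical targets of the acid. The 9 genes described here cover storage (Lrat), transport (Rbp4), the step between retinol and retinal (Rdh7, Rdh10, Rdh16, Dhrs3), removal of retinoic acid (Cyp26a1, Cyp26b1) and a receptor (Rarb). They were chosen by gene name from the gene table, 9 of 26639 gene names in all.

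Liver RNA came from mice of 8 weeks, labelled C57BL/6 in the first 2 groups, which the methods describe as male C57BL/6J. The 3 groups were pair-fed mice on an isocaloric control liquid diet (PF), alcohol-fed mice on the Lieber-DeCarli diet (AF), and mice on the alcohol diet that also received MNA intraperitoneally at 50 mg/kg each day (AF with MNA), with 3 libraries in each group and 5 weeks of feeding. All mice were on liquid diet, and for PF and AF the methods add that the alcohol share of calories was raised in steps and that the mice fasted before they were killed. The labels do not spell out MNA, its group has no control on the control diet, and the strain labels of its 3 libraries read C57BL/7, C57BL/8 and C57BL/9. The authors' unit is FPKM, in which fragments are scaled to the length of the transcript and to the fragments of the library. This allows for differences in transcript length and library depth, but does not correct for libraries that differ in composition. Nothing in the labels says how many mice went into a library, so the p-values measure only the spread between these libraries.

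The gene table gives no read counts. Mean read coverage per FPKM, taken from the lncRNA table, was 5.84 to 8.30 reads per base and FPKM over the 9 libraries, which put Cyp26a1 in its lowest library at 12.1 reads per base. AF replicate 3 and AF with MNA replicate 1 stood apart in the summed FPKM of transcripts that lie inside introns, 9433 and 8934 against 2477 to 4937 in the other 7 libraries. The calls named below that use them are also given without them. Hepatocyte markers were abundant in every library, with the 4 of 5 listed genes found in the table (Alb, Apoa1, Cps1 and Fgb) summing to 13422 to 18109 FPKM in PF, 13243 to 18784 in AF and 16552 to 19362 in AF with MNA. Stellate cell markers were present throughout, at summed levels of 45.0 to 52.8 FPKM in PF, 38.6 to 63.7 in AF and 57.2 to 74.3 in AF with MNA for all 9 listed genes. The largest part of this sum in every library was Ecm1, at 30.2 to 34.6 FPKM in PF, 24.7 to 42.1 in AF and 36.6 to 49.6 in AF with MNA.

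Of the 9 genes, 8 had an entry built on known transcripts that reached a mean of 0.5 FPKM over the compared libraries, and those 8 were tested. A gene was called where limma gave an unadjusted p under 0.05 and the ratio of the mean FPKMs, in log2, was above 1 or below -1. The methods state these limits for lncRNAs tested with Ballgown, and here they were put to the genes with limma's p-values. Benjamini-Hochberg adjusted p-values over all tested genes stand beside it. In AF against PF, 1 of the 8 genes was called, Cyp26a1, which was higher, where 4.3% of all 12268 tested genes were called in either direction and 1.95% as higher. The median log2 ratio was 0.07 over the 8 genes and -0.03 over all tested genes. In this bulk tissue, fewer cells of a type and less RNA per cell cannot be told apart.

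Cyp26a1 (ENSMUSG00000024987) lies at chr19:37697798-37701536 on the plus strand of GRCm38, with Cyp26c1 just before it at chr19:37685581-37693398 on the same strand. Its promoter is shown because Cyp26a1 had the largest change of the 8 tested genes, and because it holds a letter match to the element that retinoic acid receptors bind. The 240 bases shown are the part of its RefSeq window (GRCm38.p6) that lies before the annotated gene, chr19:37697558-37697797 on the plus strand. The capitals mark the matching element:

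Cyp26a1: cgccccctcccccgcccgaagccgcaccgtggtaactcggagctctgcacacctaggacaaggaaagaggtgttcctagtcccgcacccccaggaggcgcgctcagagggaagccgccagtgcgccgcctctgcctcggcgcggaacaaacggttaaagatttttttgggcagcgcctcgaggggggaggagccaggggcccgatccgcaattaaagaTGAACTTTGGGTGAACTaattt

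The search took the hexamer AGGTCA, with A or G allowed as the first letter and G or T as the third, in direct repeat with 1, 2 or 5 bases between the copies, on both strands, in the 300-base RefSeq windows from 250 bases before to 50 bases after a start. The element with 5 bases between the copies (DR5) was found in 32 of 32851 windows, 0.0974% of them, and among them were the windows of Cyp26a1 and Rarb. The site of Cyp26a1 reads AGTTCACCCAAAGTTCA on the strand opposite to the gene, at chr19:37697776-37697792, 32 to 16 bases before the RefSeq start. The site of Rarb reads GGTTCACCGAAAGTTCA on the strand of the gene, at chr14:16575513-16575529, 53 to 37 bases before the RefSeq start. The transcript of Rarb in the gene table starts 67 bases upstream of that RefSeq start, so the site lies inside it. The elements with 1 base (73 windows, 0.222%) and 2 bases (88 windows, 0.268%) between the copies were in none of the 12 windows of the 8 genes that have one; Rdh10 has no window. These are matches of letters, and no binding was measured.

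Cyp26a1 encodes the main retinoic acid hydroxylase of liver. Its level was 4.45, 1.79 and 3.62 FPKM in the PF libraries, 29.03, 21.53 and 17.18 FPKM in the AF libraries, and 12.94, 15.82 and 8.87 FPKM in the libraries of AF with MNA. All AF libraries stood above all others, all PF libraries stood below all others, and the 3 groups did not overlap. Of all tested genes, 18.3% had groups that did not overlap in AF against PF, and 8.18% were higher in this way. The group means were 3.29 ± 1.36 FPKM in PF and 22.6 ± 5.99 FPKM in AF (SD, n = 3 each), a ratio of 6.87 and a log2 ratio of 2.78. The limma difference in log2(FPKM + 1) was 2.48 ± 0.30 (SE), with a 95% interval of 1.77 to 3.20, an unadjusted p of 0.000102 and an adjusted p of 0.0359, where 0.326% of all tested genes had an adjusted p under 0.05. By p it ranked 35 among the 12268 tested genes.

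The call of Cyp26a1 in AF against PF was kept in all 17 alternative settings, with a log2 ratio of 2.48 to 3.06. The adjusted p was under 0.05 in only 7 of them, over a range of 0.0136 to 0.32. It was 0.0601 to 0.113 when any 1 of the 6 libraries was left out, and 0.0702 without AF replicate 3, where the log2 ratio was 2.94.

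Cyp26b1 (ENSMUSG00000063415, chr6:84571414-84593908, minus strand) encodes the second hydroxylase of the family. Its level was 2.44, 2.66 and 2.76 FPKM across PF, 4.89, 5.00 and 4.26 FPKM across AF, and 5.02, 4.22 and 4.66 FPKM across AF with MNA. Every library on the alcohol diet was above every PF library, and the groups on the alcohol diet overlapped each other. The AF mean was 1.80 times the PF mean, a log2 ratio of 0.85 that did not reach the fold threshold. The limma difference was 0.66 ± 0.12 (SE), with a 95% interval of 0.38 to 0.94, an unadjusted p of 0.000942 and an adjusted p of 0.107. Over the alternatives the log2 ratio of the means was 0.80 to 0.92 and the unadjusted p stayed under 0.05 in all 17, while the adjusted p was under 0.05 in 1.

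Cyp26c1, the third gene of the family and not among the 9, was low in every library, at 0.46 to 0.60 FPKM in PF, 0.31 to 0.98 FPKM in AF and 0.55 to 1.09 FPKM in AF with MNA. The sum of the 3 Cyp26 genes was therefore made up mostly of Cyp26a1 in AF. It was 7.49, 4.92 and 6.84 FPKM across PF, 34.5, 26.8 and 22.4 FPKM across AF, and 18.5, 20.9 and 14.6 FPKM across AF with MNA. The 3 groups did not overlap, and the exact permutation p was 0.1 in each of the 3 pairs of groups, the smallest that 3 against 3 libraries can give (two-sided).

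**Figure D1:**
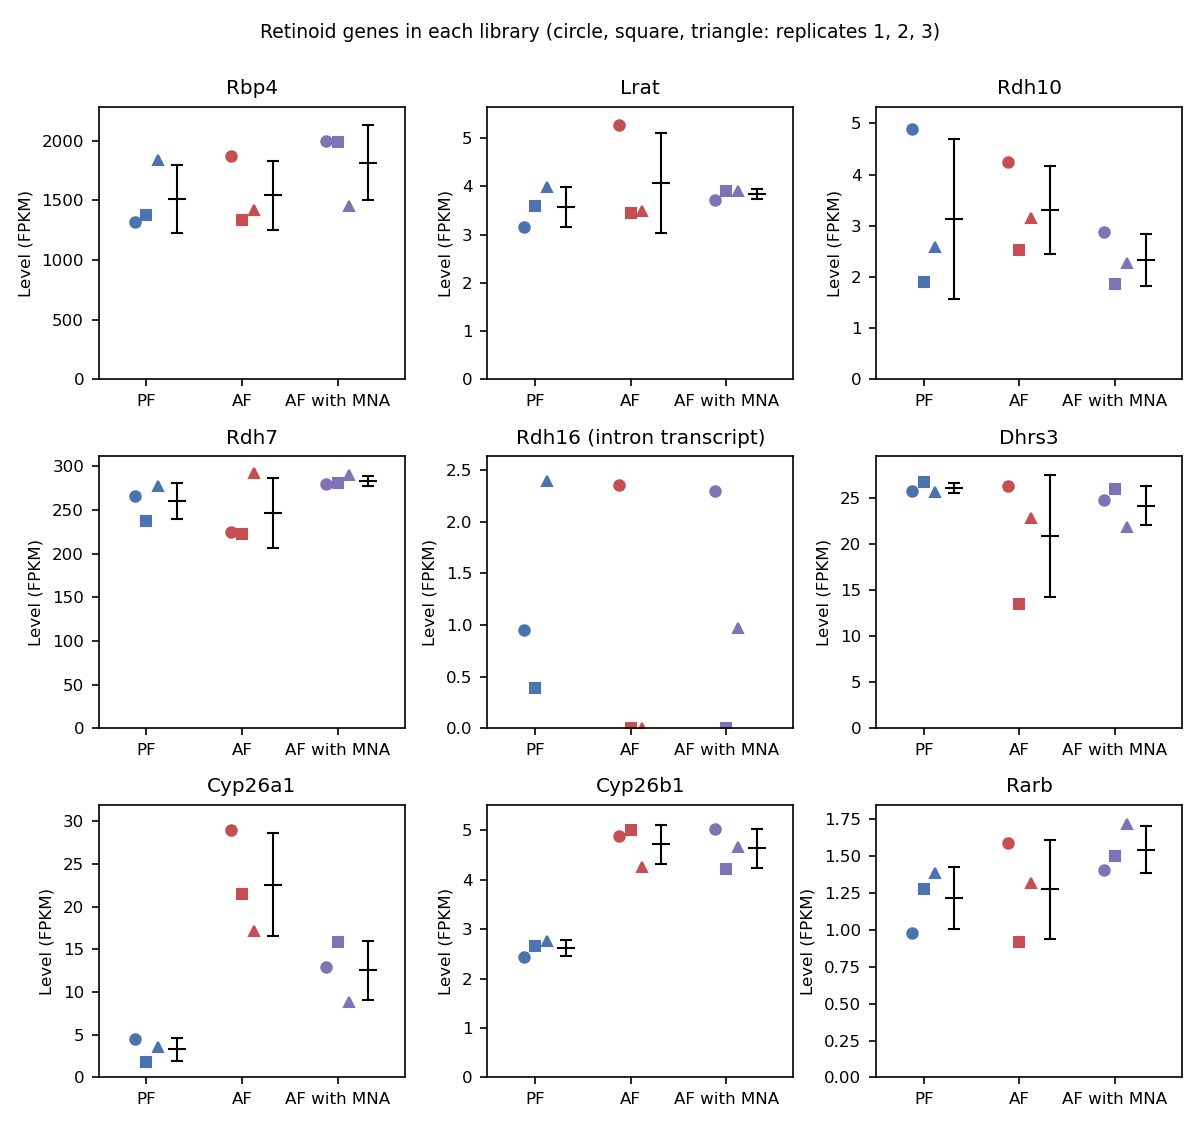
Level in FPKM (vertical axis, linear from 0) of the 9 genes in each library of PF, AF and AF with MNA, with replicates 1, 2 and 3 as circle, square and triangle and the mean ± SD (n = 3) in black to the right. The groups stand apart for Cyp26a1, at up to 4.45 FPKM in PF and from 17.18 FPKM in AF, and PF stands apart for Cyp26b1, while most other panels overlap; the Rdh16 panel shows a transcript inside an intron and has no mean.

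The hydroxylases did not keep one ratio to each other over the groups. The ratio of Cyp26a1 to Cyp26b1 within a library was 1.82, 0.673 and 1.31 across PF, 5.94, 4.31 and 4.03 across AF, and 2.58, 3.75 and 1.903 across AF with MNA. The 3 groups did not overlap, with PF lowest and AF highest. The means were 1.27 ± 0.577, 4.76 ± 1.03 and 2.74 ± 0.934 (SD, n = 3), each pair of groups with an exact permutation p of 0.1.

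**Figure D2:**
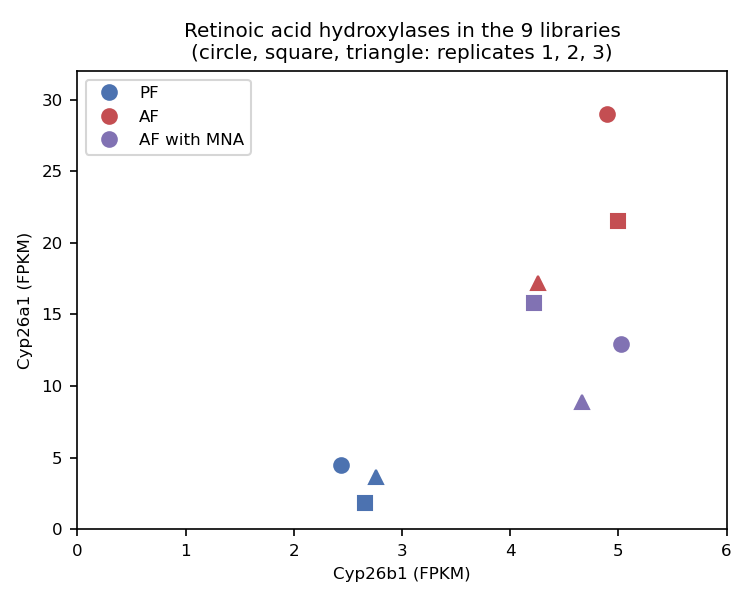
Cyp26a1 against Cyp26b1, both in FPKM, in the 9 libraries, coloured by group with replicates 1, 2 and 3 as circle, square and triangle. PF libraries lie at the lower left (Cyp26b1 up to 2.76 FPKM), and the groups on the alcohol diet share the range of Cyp26b1 from 4.22 to 5.02 FPKM but not that of Cyp26a1.

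Storage and transport genes gave no call in AF against PF. Lrat (ENSMUSG00000028003, chr3:82892579-82903973, minus strand) encodes the enzyme that esterifies retinol and is expressed in stellate cells. Its level was 3.15, 3.59 and 3.98 FPKM across PF, 5.26, 3.45 and 3.48 FPKM across AF, and 3.72, 3.90 and 3.90 FPKM across AF with MNA. AF replicate 1 was the highest of all libraries and the other AF libraries lay within the PF range. The difference in log2(FPKM + 1) of AF from PF was 0.13, with a 95% interval of -0.28 to 0.55 and an adjusted p of 0.814 in limma.

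Rbp4 (ENSMUSG00000024990, chr19:38116629-38125281, minus strand) encodes the plasma carrier of retinol and had the highest level of the 9 genes. It stood at 1317, 1378 and 1836 FPKM across PF, 1872, 1332 and 1420 FPKM across AF, and 2001, 1993 and 1454 FPKM across AF with MNA. The 3 groups overlapped. The difference in log2(FPKM + 1) of AF from PF was 0.03, with a 95% interval of -0.51 to 0.57 and an adjusted p of 0.974 in limma.

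The enzymes that act between retinol and retinal also gave no call. Rdh7 (ENSMUSG00000040134, chr10:127884028-127888817, minus strand), a retinol dehydrogenase abundant in liver, was at 265.84, 237.67 and 277.11 FPKM across PF, 224.41, 221.88 and 292.36 FPKM across AF, and 279.33, 280.24 and 289.30 FPKM across AF with MNA. PF and AF overlapped, and AF with MNA was above every PF library. The difference of AF from PF was -0.09 in log2(FPKM + 1), with a 95% interval of -0.50 to 0.32 and an adjusted p of 0.88 in limma.

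Rdh10 (ENSMUSG00000025921, chr1:16105774-16133734, plus strand) oxidizes retinol on the way to retinoic acid. Its level was 4.90, 1.91 and 2.59 FPKM across PF, 4.24, 2.53 and 3.15 FPKM across AF, and 2.87, 1.86 and 2.28 FPKM across AF with MNA. PF replicate 1 and AF replicate 1 were the highest and all 3 groups overlapped. The 95% interval of AF minus PF, -0.58 to 0.80 in log2(FPKM + 1), was the widest of the genes without a call, and the adjusted p was 0.921 in limma.

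Dhrs3 (ENSMUSG00000066026, chr4:144892827-144928209, plus strand) reduces retinal back to retinol. It was even over PF, at 25.73, 26.65 and 25.65 FPKM, and spread over AF, at 26.22, 13.52 and 22.78 FPKM, with 24.69, 25.88 and 21.81 FPKM across AF with MNA. AF replicate 2 was by itself the lowest library, and the AF range enclosed part of the PF range. The log2 ratio of AF to PF was -0.32, with an adjusted p of 0.618 in limma, and it was -0.09 without AF replicate 2.

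Rarb (ENSMUSG00000017491, chr14:16430839-16819156, minus strand) encodes retinoic acid receptor beta and is itself a known target of retinoic acid. Its level was 0.98, 1.28 and 1.39 FPKM across PF, 1.59, 0.92 and 1.32 FPKM across AF, and 1.41, 1.50 and 1.72 FPKM across AF with MNA. AF spanned the PF values, and AF with MNA lay just above them. The log2 ratio of AF to PF was 0.07, with an adjusted p of 0.958 in limma and a 95% interval of -0.34 to 0.40 on the scale of log2(FPKM + 1). Rarb had the lowest coverage of the tested genes, down to 5.69 reads per base. The DR5 match stood in the windows of a gene that was called and of a gene that was not.

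For Rdh16 the table held no separate value of the messenger RNA. Rdh16 (ENSMUSG00000069456, chr10:127801152-127846565, plus strand) encodes a retinol dehydrogenase and sits in a cluster of related genes. The only entry that carries its name is an assembled transcript of 1 exon and 348 bases, chr10:127831302-127831649. It lies inside both Rdh16 and Rdh18-ps and overlaps no exon of either. That transcript was at 0.95, 0.39 and 2.39 FPKM across PF, at 2.35 FPKM in AF replicate 1 and listed at 0 in the other AF libraries, and at 2.30, 0 and 0.97 FPKM across AF with MNA. The groups overlapped, and with all entries fitted the log2 ratios were -0.67, 0.48 and -0.19 in AF against PF, AF with MNA against AF and AF with MNA against PF, with unadjusted limma p-values of 0.422, 0.629 and 0.758.

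The known transcripts of Rdh16 sit in an entry named Rdh18-ps that merges transcripts of 5 genes (Rdh1, Rdh16, Rdh16f1, Rdh18-ps and Rdh9). This entry was at 5.09, 2.80 and 4.95 FPKM across PF, 3.66, 3.38 and 3.86 FPKM across AF, and 5.05, 4.39 and 4.20 FPKM across AF with MNA, and it cannot be read as Rdh16. PF and AF overlapped, and AF with MNA was above AF. Genes of this cluster are near copies of each other, so reads may also be shared between entries.

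**Figure D3:**
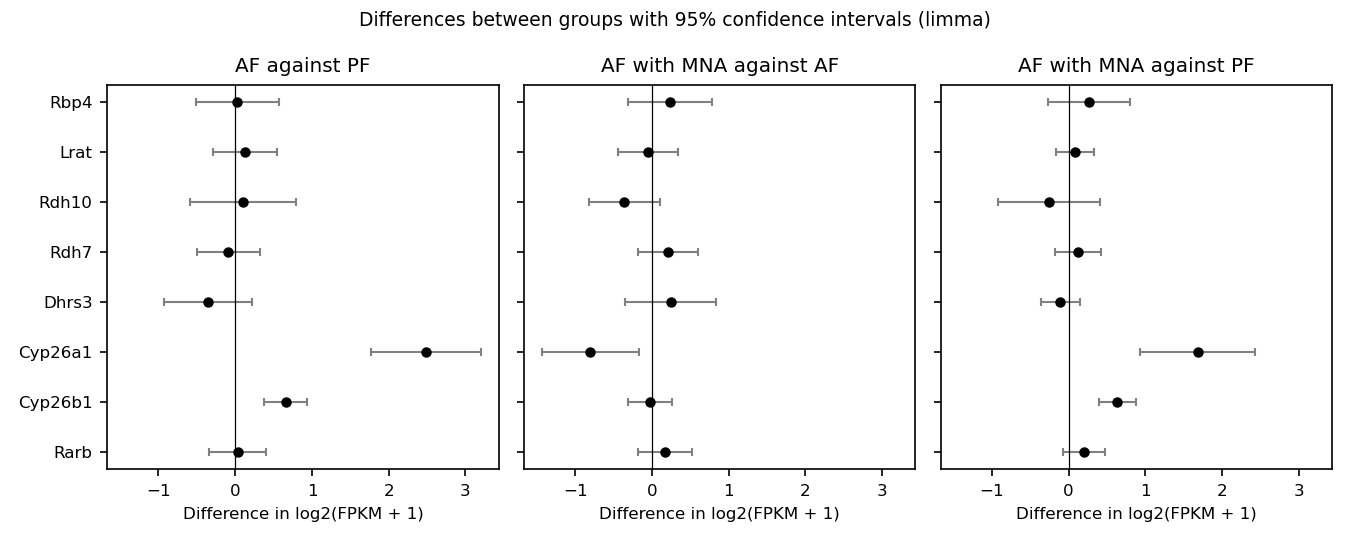
Difference between group means in log2(FPKM + 1) from limma (horizontal axis) with 95% confidence intervals for the 8 tested genes in the 3 comparisons of 3 against 3 libraries. In AF against PF the intervals of Cyp26a1 (1.77 to 3.20) and Cyp26b1 (0.38 to 0.94) lie above 0, and in AF with MNA against AF only that of Cyp26a1 (-1.44 to -0.17) leaves 0 out.

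The order of the levels in the groups on the alcohol diet differed from that in PF around Cyp26a1 and Cyp26b1. In PF the order by mean FPKM was Rbp4, Rdh7, Dhrs3, Lrat, Cyp26a1, Rdh10, Cyp26b1, the intron transcript of Rdh16 and Rarb. The first 4 were separated from each other without overlap of libraries. Lrat, Cyp26a1, Rdh10 and Cyp26b1, at means of 3.57, 3.29, 3.13 and 2.62 FPKM, overlapped with their neighbours in that order, and so did the last pair. In AF and in AF with MNA, Cyp26a1 was above Lrat and Rdh10 in every library, and Cyp26b1 was above Rdh10 in every library. By mean, Cyp26a1 was also above Dhrs3 in AF (22.6 and 20.8 FPKM, with overlap). Cyp26b1 was above Lrat in AF (4.72 and 4.06 FPKM, with overlap) and in AF with MNA (4.63 and 3.84 FPKM).

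AF with MNA was compared with AF to see where the compound went with another level on the same diet. None of the 8 genes was called, where 1.98% of 12214 tested genes were, and limma gave an unadjusted p under 0.05 for 1 of the 8 genes, as for 5.22% of all tested genes. That gene was Cyp26a1, whose mean of 12.5 ± 3.49 FPKM was 0.556 times the AF mean of 22.6 FPKM. Every library of AF with MNA was below every AF library, as in 4.58% of all tested genes. The log2 ratio was -0.85, short of the fold threshold, with a limma difference of -0.80 ± 0.26 (SE), a 95% interval of -1.44 to -0.17, an unadjusted p of 0.0202 and an adjusted p of 0.94.

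Whether Cyp26a1 was called here turned on single libraries. Without AF replicate 3 the log2 ratio was -1.01 (unadjusted p of 0.0144 in limma), without AF with MNA replicate 2 it was -1.05 (unadjusted p of 0.0135), and without both libraries rich in intron signal it was -1.03 (unadjusted p of 0.033), so that Cyp26a1 was then called. Without AF replicate 1 the log2 ratio was -0.63 (unadjusted p of 0.0629 in limma), and without AF with MNA replicate 3 the unadjusted p was 0.0595 in limma. The adjusted p was 0.571 to 1 over the 18 alternatives.

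Cyp26b1 overlapped between the groups on the alcohol diet. Its difference was -0.02 in log2(FPKM + 1), with a 95% interval of -0.31 to 0.27 and an adjusted p of 1 in limma. The other 6 tested genes overlapped between the groups, with unadjusted p-values of 0.106 (Rdh10, log2 ratio -0.50) and above in limma. Their log2 ratios ran from -0.50 to 0.27, and the median over the 8 genes was 0.09 against 0.01 over all 12214 tested genes.

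AF with MNA against PF shares its PF libraries with AF against PF and its MNA libraries with the comparison above. In it, 1 of the 8 genes was called, Cyp26a1, where 3.89% of 12276 tested genes were called in either direction and 1.94% as higher. Its mean was 3.82 times that of PF, a log2 ratio of 1.93, with a limma difference of 1.68 ± 0.31 (SE), an unadjusted p of 0.00139 and an adjusted p of 0.113. Cyp26b1 was 1.77 times the PF mean, a log2 ratio of 0.82, with an unadjusted p of 0.00056 and an adjusted p of 0.0896 in limma, and was not called. Groups did not overlap for 4 of the 8 genes, all higher in AF with MNA, where 9.54% of all tested genes were. Besides the hydroxylases these were Rdh7 (log2 ratio 0.12, unadjusted p of 0.348 in limma) and Rarb (log2 ratio 0.34, unadjusted p of 0.121). Without AF with MNA replicate 1 the log2 ratio of Cyp26a1 was 1.91, with Cyp26b1 at 0.76, Rdh7 at 0.13 and Rarb at 0.40.

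Around these genes, 7 lists of the pathway with 55 names were followed, of which 37 genes were tested. In AF against PF none was called higher and 3 of the 37 were called lower, where 1.95% of all tested genes were called higher and 2.35% lower, and the median log2 ratio was 0.07 against -0.03 over all tested genes. The 3 were Aox3, Adh4 and Fabp5. An unadjusted p under 0.05 in limma was given to 8 of the 37, where 11.7% of all tested genes had one, and the same 8 did not overlap between the groups, where 18.3% of all tested genes did not. Besides those called, Bco2 (log2 ratio -0.72), Lipe (-0.45) and Aldh8a1 (-0.46) were lower, and Pnpla2 (0.76) and Aox1 (0.81) were higher. In AF with MNA against AF no gene of the lists was called (1.98% of all tested genes), while limma gave 3 of the 37 (5.22% of all tested genes) with an unadjusted p under 0.05 (Stra6l, log2 ratio -0.51, Dhrs4, 0.32, and Rxrg, 0.89) and none with an adjusted p under 0.05. In AF with MNA against PF, which uses the PF libraries again, Aox3, Adh4 and Fabp5 were called lower (log2 ratios -1.24, -1.41 and -2.79) and none higher, where 1.95% of all tested genes were called lower and 1.94% higher. Here 13 of the 37 had an unadjusted p under 0.05 in limma (14.5% of all tested genes), and 14 did not overlap between the groups (21.4% of all tested genes), 7 in each direction. Those higher were Adh1, Aldh1a1, Aox1, Dhrs4, Pnpla2, Rxrg and Rarres2, with log2 ratios of 0.37 to 0.91, and only Aox3 had an adjusted p under 0.05 (0.0445). Without AF replicate 3 in the first comparison (log2 ratios -1.43, -1.64 and -2.21) and without AF with MNA replicate 1 in the last (-1.13, -1.30 and -3.07), Aox3, Adh4 and Fabp5 were still called, with adjusted p-values of Aox3 of 0.0572 and 0.0714 in limma. The calls of these 3 genes held in both comparisons when any 1 of the 6 libraries was left out, while the adjusted p of Aox3 was 0.041 to 0.0708 and 0.0714 to 0.136.

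Among the oxidases that turn retinal into retinoic acid, Aox3, an aldehyde oxidase of liver, was at 65.80, 60.57 and 53.76 FPKM across PF, 22.99, 21.50 and 23.01 FPKM across AF, and 21.33, 28.68 and 26.38 FPKM across AF with MNA. PF was above every other library and the groups on the alcohol diet overlapped. The log2 ratio of AF to PF was -1.42, with an unadjusted p of 2.32e-05 and an adjusted p of 0.0141 in limma. Aox1, a related oxidase, averaged 2.73 ± 0.597 FPKM over PF and 4.80 ± 1.72 FPKM over AF (log2 ratio 0.81, unadjusted p = 0.0357, adjusted p = 0.39 in limma), and was not called. Aldh1a1, the abundant retinal dehydrogenase of this list, was at 265 ± 40.7 FPKM in PF, 315 ± 58.4 FPKM in AF and 432 ± 61.2 FPKM in AF with MNA. Neither Aox1 nor Aldh1a1 overlapped between AF with MNA and PF (log2 ratios 0.91 and 0.70, adjusted p = 0.113 and 0.201 in limma). Of the 4 tested oxidases 1 was called lower and none higher.

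Among the alcohol and retinol dehydrogenases, 1 of 9 tested genes was called. Adh4 encodes an alcohol dehydrogenase that also takes retinol. Its level was 108.93, 52.83 and 74.59 FPKM across PF, 20.07, 30.41 and 29.33 FPKM across AF, and 25.02, 35.34 and 28.67 FPKM across AF with MNA. Every PF library was above every library on the alcohol diet. The log2 ratio of AF to PF was -1.57, with an unadjusted p of 0.00179 and an adjusted p of 0.127 in limma. Adh1, the main ethanol-oxidizing enzyme of liver, was at 340 ± 51.3 FPKM in PF, 455 ± 68.3 FPKM in AF and 538 ± 60.6 FPKM in AF with MNA, and was not called. It was higher in AF with MNA than in PF without overlap (log2 ratio 0.66, unadjusted p = 0.00755, adjusted p = 0.199 in limma).

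Of 7 tested genes for uptake and binding of retinoids, 1 was called in AF against PF, and the median log2 ratio of the list was -0.64. Fabp5, a fatty acid binding protein that also carries retinoic acid, was at 3.29, 6.87 and 2.27 FPKM across PF, 1.13, 0.66 and 1.05 FPKM across AF, and 0.81, 0.58 and 0.41 FPKM across AF with MNA. Every PF library was above all others. The log2 ratio of AF to PF was -2.13, with an unadjusted p of 0.00548 and an adjusted p of 0.211 in limma. Ttr, whose product transthyretin binds the Rbp4 protein in plasma, was at 2329 ± 236 FPKM in PF and 1493 ± 603 FPKM in AF, a log2 ratio of -0.64 with an adjusted p of 0.446 in limma.

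No gene was called among the 5 tested genes of retinyl ester making and hydrolysis (median log2 ratio 0.15), the 2 other hydroxylases (0.42), the 5 receptors (-0.15) and the 5 genes known to respond to retinoic acid (0.40). Pnpla2, a lipase, was at 17.65, 23.68 and 21.29 FPKM across PF and 34.61, 40.11 and 31.62 FPKM across AF, without overlap, and its log2 ratio of 0.76 (unadjusted p = 0.00296, adjusted p = 0.161 in limma) missed the fold threshold. All 5 responding genes (Tgm2, Rarres1, Rarres2, Nrip1 and Fgf21) had a higher mean in AF, but each overlapped between PF and AF. None of them had an unadjusted p under 0.05 in limma, where 11.7% of all tested genes had one. The sum over the 6 genes of this list in the table was higher in both groups on the alcohol diet than in PF without overlap, at 82.9 to 86.8 FPKM in PF, 101.3 to 122.3 FPKM in AF and 109.2 to 117.5 FPKM in AF with MNA. The largest part of it in every library was Rarres2, at 51.91, 48.12 and 59.82 FPKM across PF, 81.94, 51.08 and 74.45 FPKM across AF, and 77.53, 77.25 and 67.79 FPKM across AF with MNA. Rarres2 was higher in AF with MNA than in PF without overlap (log2 ratio 0.48, unadjusted p = 0.00965, adjusted p = 0.22 in limma) and was not called. Rara, the receptor gene with the largest log2 ratio in size (-0.62), was at 4.35 ± 0.842 FPKM in PF and 2.82 ± 1.21 FPKM in AF, with overlap and an adjusted p of 0.502 in limma.

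**Figure D4:**
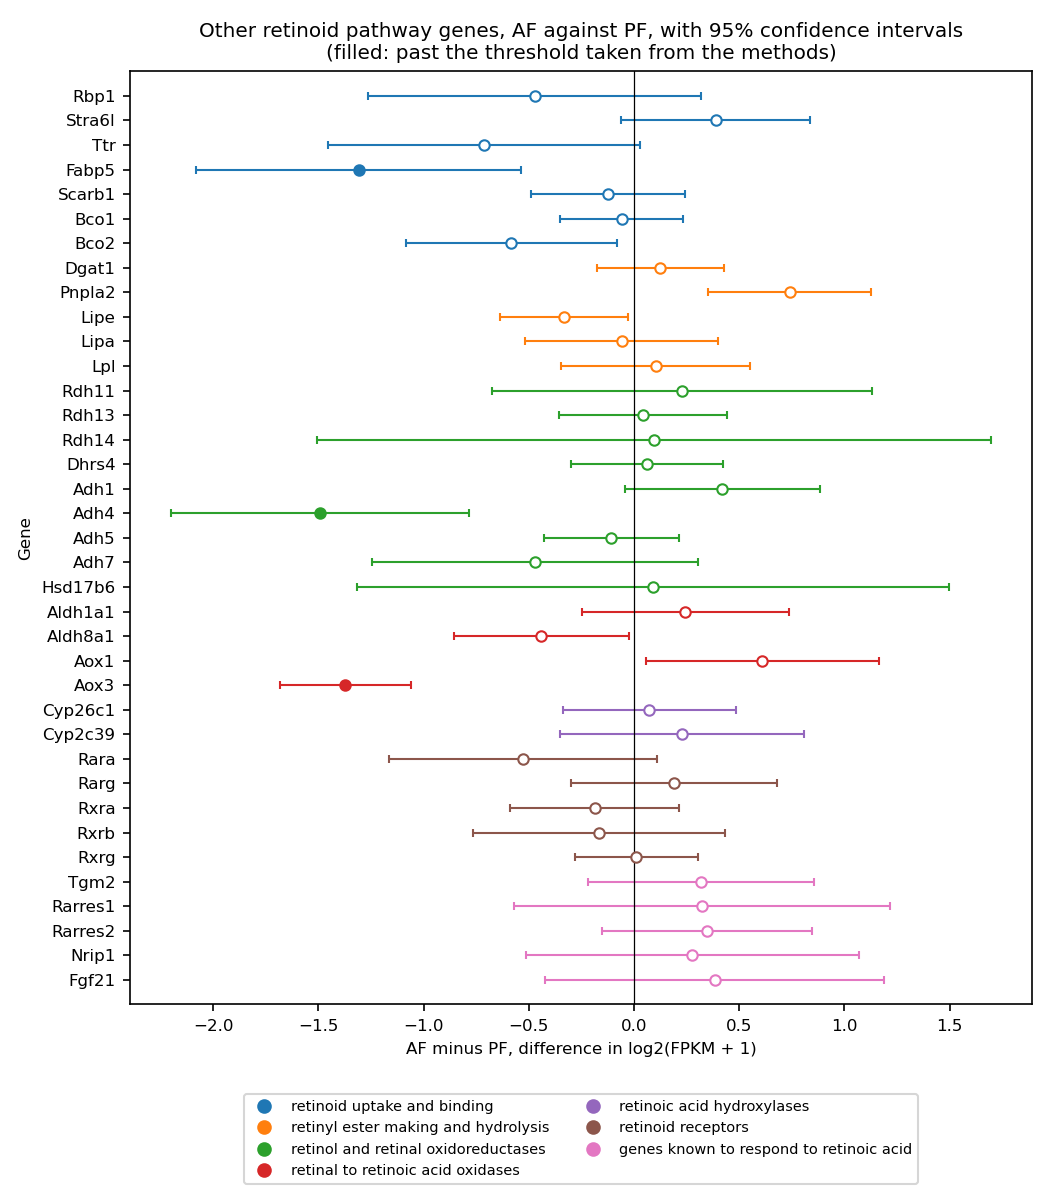
AF minus PF in log2(FPKM + 1) from limma (horizontal axis) with 95% confidence intervals for the 37 tested genes of the 7 pathway lists, coloured by list, 3 libraries in each group. Filled points mark the 3 genes past the threshold taken from the methods, Fabp5, Adh4 and Aox3, all below 0.

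Cell markers beside these results were as follows. Stellate cell markers, the cells of Lrat, gave no call in 9 tested genes in AF against PF, with an unadjusted p under 0.05 in limma for 3 (11.7% of all tested genes) and none with an adjusted p under 0.05. Of these, Des was higher in AF (log2 ratio 0.93), and Reln and Hand2 were lower (-0.56 and -0.76). In AF with MNA against PF no stellate cell marker was called, and 5 of the 9 means were higher. Ecm1 was higher and Hand2 lower without overlap there, where 21.4% of all tested genes did not overlap. Markers of activated stellate cells summed to 2.77 to 4.71 FPKM in PF and 3.12 to 4.50 FPKM in AF. Acta2 averaged 0.79 FPKM in PF and 0.70 FPKM in AF, and Tagln 0.50 and 0.55 FPKM, both with overlap. Timp1 was at 0 in all PF libraries and at most at 0.23 FPKM elsewhere. None of the 4 tested genes of this list was called. A pair of collagen genes did not overlap between PF and AF, in opposite directions, where 18.3% of all tested genes did not overlap. Col1a1 was at 0.54 FPKM in the mean of PF and 0.99 FPKM in that of AF (log2 ratio 0.87, adjusted p = 0.414 in limma), and Col3a1 at 1.72 and 1.29 FPKM (log2 ratio -0.42, adjusted p = 0.488).

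Liver sinusoidal endothelial markers, like Cyp26b1, had higher means in the groups on the alcohol diet than in PF. Their sum over 6 genes was 21.9 to 28.7 FPKM in PF, 28.6 to 41.0 FPKM in AF and 35.1 to 41.3 FPKM in AF with MNA, and 0 of the 6 were called in AF against PF although all 6 means were higher (median log2 ratio 0.41) and Pecam1 did not overlap (log2 ratio 0.50, adjusted p = 0.372 in limma). In AF with MNA against PF none passed the call rule either, but 4 of the 6 (Clec4g, Kdr, Pecam1 and Oit3) were higher without overlap and with an unadjusted p under 0.05 in limma, where 14.5% of all tested genes had such a p, and the median log2 ratio was 0.61. Their part in the result for Cyp26b1 was not tested. Pericentral hepatocyte markers, the zone where Cyp26a1 is known to be expressed, summed to 3546 to 4308 FPKM in PF, 3269 to 3633 FPKM in AF and 3658 to 3852 FPKM in AF with MNA, and none of the 5 was called. Most of this sum was Cyp2e1, which was lower in AF than in PF without overlap (means of 2880 and 3326 FPKM, adjusted p = 0.722 in limma), while Slc1a2 was higher without overlap (12.9 and 8.78 FPKM, adjusted p = 0.304). In AF with MNA against PF, 3 of the 5 means were higher. Of these, Oat (276 and 179 FPKM) and Slc1a2 (12.95 and 8.78 FPKM) did not overlap, where 9.54% of all tested genes were higher in this way. Oat was also higher in AF with MNA than in AF without overlap (276 and 229 FPKM). The part of pericentral cells in the result for Cyp26a1 was not tested.

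Periportal markers summed to 873 to 1168 FPKM in PF, 1129 to 1410 FPKM in AF and 1026 to 1101 FPKM in AF with MNA. Sds, a serine dehydratase, was called higher in AF, as 1.95% of all tested genes were (log2 ratio 1.10, adjusted p = 0.307 in limma). In AF with MNA against AF, Sds and Pck1 were lower without overlap, as 4.58% of all tested genes were. Their log2 ratios were -0.76 and -0.44 (adjusted p = 0.94 for both in limma), and neither was called. The mean of Cyp2f2, another periportal marker, was higher there with overlap (400 and 328 FPKM). Without AF replicate 3 the log2 ratio of Sds was 1.27 in AF against PF and -0.93 in AF with MNA against AF. The call of Sds in AF against PF was lost without PF replicate 1 (log2 ratio 0.82, unadjusted p = 0.026) and without AF replicate 2 (0.89, unadjusted p = 0.0501 in limma). Kupffer cell markers summed to 54.0 to 64.7, 43.2 to 79.0 and 53.8 to 71.7 FPKM in the 3 groups. The scavenger receptor gene Marco was called higher in AF, as 1.95% of all tested genes were (log2 ratio 1.25, adjusted p = 0.365 in limma). Of the other 4 Kupffer cell markers none was called. Vsig4 was lower in AF without overlap (log2 ratio -0.52, adjusted p = 0.429 in limma), Clec4f was lower with overlap (-0.64, adjusted p = 0.471), and Cd5l and Timd4 had log2 ratios of 0.05 and 0.25. Marco stood at 1.05, 0.80 and 0.56 FPKM across PF, 1.86, 2.77 and 1.10 FPKM across AF, and 1.56, 2.82 and 2.80 FPKM across AF with MNA. Its call in AF against PF held with 2 of the 6 libraries left out in turn, PF replicate 1 and AF replicate 3 (highest log2 ratio 1.53), and was lost with each of the other 4, at unadjusted p-values of 0.0615 to 0.0851 and, without AF replicate 2, a log2 ratio of 0.88. It was called higher in AF with MNA against PF too (log2 ratio 1.57, adjusted p = 0.152 in limma), and with every library left out in turn. Cholangiocyte markers were near 0 by comparison, at 1.14 to 2.46 FPKM in sum over all libraries. The part of these cells in the results above was not tested.

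The genes with the most similar pattern were taken over the 9 libraries by Pearson's r of log2(FPKM + 1), among the 9980 genes whose mean reached 1 FPKM. Nearest to Cyp26a1 were Agt (r = 0.969) and Gm5678 (0.965), and nearest to Cyp26b1 were the drug-metabolizing cytochromes Cyp2c54 (0.981) and Cyp2b10 (0.980). Nearest to Lrat were Tmx2 (0.951) and Mmachc (0.942), to Rbp4 Myl12b (0.946) and Nadk (0.939), and to Rdh10 Lrrc4 (0.960) and Ehbp1l1 (0.923). Nearest to Rdh7 were Mir1981 (0.962) and Gm16559 (0.960), to Dhrs3 Oaz1-ps (0.960) and Mlx (0.957), and to Rarb Col4a3bp (0.963) and Mir7063 (0.944). The 9 points fall into 3 groups and share libraries and depth, and with so many genes searched over 9 points values of this size were the highest of 9980, so they are given as a description.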

How the data were processed

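The submitters' processing notes name cutadapt 1.9, FastQC, HISAT2, TopHat, StringTie 1.3.4 and edgeR. Libraries were depleted of ribosomal RNA and strand-specific. The authors made the FPKM values with StringTie from transcripts merged over libraries, and deposited them without counts. The lncRNA table also holds the authors' read coverage signal, and the circRNA table their junction read counts. The genome build is not given in the sources used here. Of 7841 known lncRNA transcripts found in GENCODE M21 (GRCm38), 7708 had the same start and end, and positions are from that annotation.

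Of 52151 gene entries, the 26345 that were named and built on an annotated transcript were used. Where a name had several, the known entry with the highest mean was taken. Genes whose mean reached 0.5 FPKM in the 6 libraries of a comparison were fitted with limma 3.58.1 (R 4.3.3; lmFit, eBayes with an intensity trend) on log2(FPKM + 1), two-sided, with Benjamini-Hochberg adjustment, and the script was tested on simulated data. A fold change is the log2 ratio of group mean FPKMs, and limma's difference understates changes of low genes. Single values were compared by two-sided exact permutation tests. Python 3.11.15 was used for the rest.

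Groups came from the sample labels, and no 2 libraries were identical. The 9 genes and the lists were chosen with earlier results of these data known. Named genes were the 9, list genes past the threshold (up to a limit that was not reached), defining markers, and the 2 nearest genes by correlation. Other list genes that did not pass were named after their values were seen. Alternatives were other pseudocounts, scalings, minimum levels and models, the replicate number as a block, and each library left out; fits of all gene entries and without the 2 libraries rich in intron signal, and single libraries left out for called list genes, were added after seeing the data.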

Additional observations from a re-analysis of the deposited data

How the results depend on the processing

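Cyp26a1 was the 1 gene of the 8 past the threshold in AF against PF and in AF with MNA against PF under every alternative. In AF with MNA against AF the count of the 8 genes past the threshold was 0 to 1 with a library left out, and 1 without both libraries rich in intron signal. The number of all genes past the threshold depended on the settings. In AF against PF it was 527, and 1183 without a minimum level, 265 with a minimum of 2 FPKM, 249 with limma's coefficient in place of the ratio, 339 with the library-size covariate and no moderation, 993 with all gene entries, and 516 to 764 with a library left out, the highest without AF replicate 3. In the same order it was 242, 676, 81, 99, 103, 572 and 211 to 367 (the highest without AF replicate 3) in AF with MNA against AF, with 470 without both libraries rich in intron signal, and 477, 1105, 228, 229, 255, 837 and 467 to 545 in AF with MNA against PF.

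Small differences without a call turned sign with a library left out. In AF against PF the ranges of the log2 ratio were -0.044 to 0.29 for Lrat, -0.13 to 0.19 for Rbp4, -0.18 to 0.56 for Rdh10 and -0.12 to 0.26 for Rarb, in AF with MNA against AF -0.19 to 0.15 for Lrat, -0.022 to 0.41 for Dhrs3 and -0.16 (without both libraries rich in intron signal) to 0.037 for Cyp26b1, and in AF with MNA against PF -0.68 to 0.055 for Rdh10. The sign turned without AF replicate 1 for Rbp4, Rarb, Rdh10 and Lrat in AF against PF and for Lrat and Cyp26b1 in AF with MNA against AF. It also turned for Rbp4 and Rarb without PF replicate 1, Rbp4 and Rdh10 without PF replicate 2 and Rdh10 without PF replicate 3 in AF against PF, for Cyp26b1 and Dhrs3 without AF replicate 2 and Cyp26b1 without AF with MNA replicate 2 in AF with MNA against AF, and for Rdh10 without PF replicate 1 in AF with MNA against PF.

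Genes with an adjusted p under 0.05 numbered 40, 6 and 53 in the 3 comparisons, and 0 to 86, 0 to 13 and 0 to 53 over the alternatives.

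Nothing in the labels says that the replicate numbers pair the samples. Correlations of deviations of same-numbered libraries were between -0.08 and 0.06, which cannot show whether mice were paired. With the number as a replicate block, 562, 260 and 488 genes were past the threshold in the 3 comparisons, and Cyp26a1 in AF against PF had an adjusted p of 0.0928. The cause of these changes was not tested. Without counts, precision rests on the spread of 3 libraries a group.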

Other observations

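Among 4486 circRNAs, 1 came from the 9 genes, from Rbp4, with 1 junction read in AF replicate 3 and 0 in the other 8 libraries. Introns of Rdh10 held 3 assembled transcripts of the lncRNA table and the intron of Rarb held 1, each at 0 in several libraries. A known antisense transcript across Lrat was at 0 in all libraries but PF replicate 1, where it was at 0.0165 FPKM. The ratio of Cyp26a1 to Rarb, the genes with the DR5 match, was 4.54, 1.40 and 2.60 across PF, 18.3, 23.4 and 13.0 across AF, and 9.18, 10.5 and 5.16 across AF with MNA, so that the 3 groups did not overlap (exact permutation p = 0.1 for each pair, two-sided, the smallest possible). Rdh16f2, a neighbour in the Rdh16 cluster, was at 7.87, 5.46 and 7.96 FPKM across PF and 15.0, 8.04 and 19.1 FPKM across AF, with a log2 ratio of 0.99, an unadjusted p of 0.0338 and an adjusted p of 0.387 in limma.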
